A study of Mus musculus with 43 samples.

Results

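Whole hearts of Q150X mice were set against whole hearts of wild-type mice at day 30 after myocardial infarction (MI), the death of heart muscle that follows a blocked coronary artery. The members were chosen by their labels alone. They are 4 Q150X and 3 wild-type libraries, 7 of the 43 bulk RNA-seq libraries of the series. Q150X is a stop codon placed in mouse Vegfa with CRISPR/Cas9 to mimic a human stop-gained variant of VEGFA, and the sample titles carry the letters ho, which the design text writes as HO. The wild-type animals have no edit named in the labels. For the place of each changed gene in the course of healing, whole hearts at day 7 after MI (4 Q150X and 4 wild-type libraries) and uninjured hearts at homeostasis (3 and 3) were used, which makes 21 heart libraries. The labels name neither strain nor age, nor the way the infarct was made. The labels do not say that replicates are separate animals, so the p-values measure the spread between these libraries, which may be technical.

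Vegfa encodes the main growth factor of blood vessels. It is secreted, binds the endothelial receptor Kdr, and is held back by Flt1, a receptor that acts largely as a sink. Placental growth factor, the product of Pgf, belongs to the same family and binds Flt1. After an infarct, dying muscle sets off an acute inflammatory wave, in which NF-kappaB and AP-1 transcription factors switch on cytokines, chemokines and acute-phase proteins. Leukocytes then clear the tissue, fibroblasts lay down a collagen scar, and the inflammatory genes are normally shut off again as the scar matures.

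Day 30 libraries held 27617401 to 31277797 counts in Q150X and 27260689 to 33109299 in wild type. More genes had at least 1 count in Q150X libraries (21780 to 22960) than in wild-type libraries (20480 to 21244), without overlap, and the part of this in the results was not tested. Genes of the mitochondrial genome took 23.09 to 29.71% of counts in Q150X and 24.95 to 30.12% in wild type. In the check of the tissue label, genes of cardiomyocyte structure summed to 53380 to 77358 CPM, counts scaled to a common library size, in Q150X and 79933 to 87108 CPM in wild type. Levels are CPM on library sizes scaled by the TMM method throughout. The libraries treated as standing apart by marker genes are outside day 30: homeostasis number 1 of each genotype holds atrial genes, and wild-type day 7 number 4 holds placental genes. Day 30 libraries differed too. Atrial genes summed to 693, 858, 1073 and 1235 CPM in Q150X libraries and to 292, 1061 and 456 CPM in wild-type libraries. Genes of the epicardium summed to 102 to 533 CPM in Q150X and 89.4 to 287 CPM in wild type. The part of these differences in the results was not tested.

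At day 30, 79 of 17845 genes tested changed, which is 0.443%. Of these, 52 were lower (0.291%) and 27 higher (0.151%) in Q150X hearts. With library size alone in place of TMM factors the calls were 22 lower and 24 higher, and the median of all genes moved to 0.20 from 0.04 on the log2 scale. A gene was called at an adjusted p under 0.05 (edgeR's quasi-likelihood F-test, adjusted by Benjamini and Hochberg over all genes tested), and values after ± are standard errors (SE) of log2 fold changes unless said otherwise. Of the 52 lower genes, 14 are in the lists of NF-kappaB, cytokine, immediate early and IL-6 genes, and 20 are in any list. These 4 lists hold 20, 26, 24 and 20 of the 17845 genes tested, and some genes are in more than 1. The lists were chosen with earlier results of these data known, so the counts carry no test. Ptx3, Il6, Ccl2, Has1 and Pfkfb3 had the largest differences among the lower genes named. All 52 are protein coding genes. Among the 27 higher genes, Lfng, Apobec1 and Kif26b had log2 fold changes of 1.07, 1.21 and 1.39. Many have a low mean: 11 of the 27 were below 1 log2 CPM over the heart libraries of all times, against 3 of the 52. This mean does not give the day 30 level. Cd5l, with a mean of -0.61, stood at 6.38 to 53.3 CPM in day 30 Q150X libraries.

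The 79 calls depend on single libraries. Leaving out wild-type library 3 left 0 calls (smallest adjusted p = 0.0669, 1859 genes at an unadjusted p under 0.05), and leaving out wild-type library 1 left 7. Without Q150X library 1 or 3 there were 9 and 8 calls. Without wild-type library 2 there were 154, without Q150X library 4 there were 223, and without Q150X library 2 there were 66. The day 30 libraries fitted on their own, without the other hearts, gave 0 calls (smallest adjusted p = 0.056, 3623 genes at an unadjusted p under 0.05). DESeq2 called 454 genes and voom with library weights 1751, of which 75 and 78 are among the 79. Without the 3 libraries of other times that stand apart, 714 genes were called, all 79 among them. No call held in all 7 fits that leave out a library. Fosl2, Ptx3, Noct, Sbno2, Maff and Gfpt2 lost theirs in 1 of the 7, the one without wild-type library 3.

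**Figure D1:**
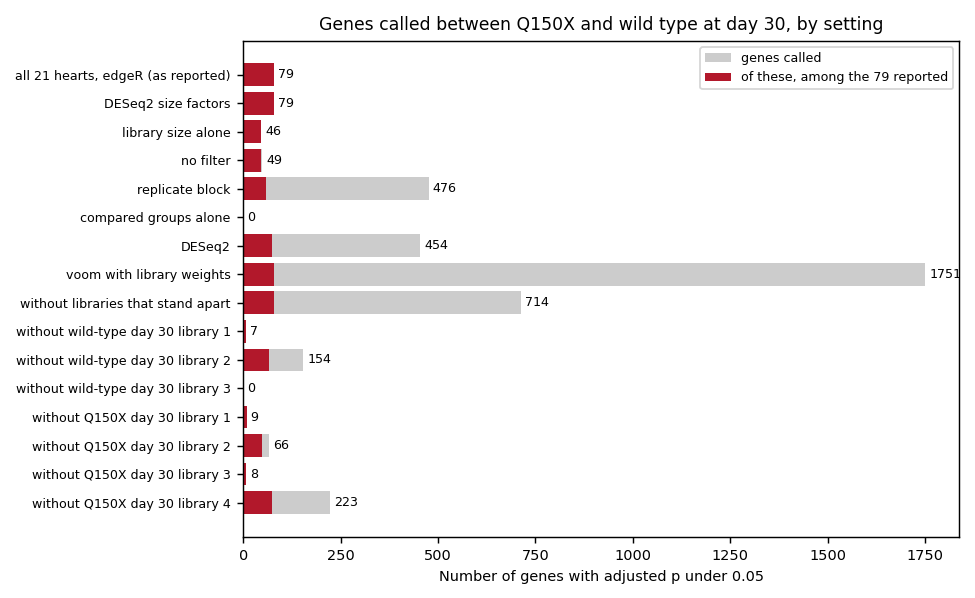
Genes with an adjusted p under 0.05 between Q150X and wild-type hearts at day 30 (horizontal axis, number of genes) under each setting (rows). Grey bars are all genes called and red bars those among the 79 reported. The count runs between 0 and 1751.

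The wild-type libraries were not alike in the genes that were lower in Q150X. Relative to the Q150X mean, the median of these 52 genes stood at -0.24, 0.28, -0.11 and 0.12 log2 CPM in Q150X libraries 1 to 4, and at 1.71, 0.71 and 2.07 in wild-type libraries 1 to 3. Wild-type library 2 was the closest to the Q150X mean in 50 of the 52 genes, library 1 in 2 and library 3 in 0. In 45 of the 52 genes every Q150X library still lay below every wild-type library, as in 9.32% of all genes tested. The 7 genes with overlap are Csf1, Ripk2, Nod2, Stx11, Icosl, Rhbdf2 and Ccrl2. These values describe genes picked for this difference and carry no test. In the 27 higher genes the wild-type libraries lay closer together, at -1.45, -1.23 and -1.35 relative to the Q150X mean.

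Vegfa RNA itself was measured in every library. It stood at 226, 204, 200 and 283 CPM in Q150X libraries 1 to 4, and at 225, 163 and 214 CPM in wild-type libraries 1 to 3. The groups overlapped, with a log2 fold change of 0.18 ± 0.37 and an adjusted p of 0.862. A count per gene does not read the stop codon, so it does not check the genotype label.

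Of 10 VEGF ligands and receptors tested, 1 changed, where 0.443% of all genes tested did. Pgf was at 3.16, 5.27, 4.85 and 4.32 CPM in Q150X libraries and at 9.09, 6.64 and 11.1 CPM in wild-type libraries. Every Q150X library lay below every wild-type library, and the log2 fold change was -1.02 ± 0.22 (adjusted p = 0.0471). Kdr, the main signalling receptor, had 78.5, 88.4, 81.4 and 152 CPM in Q150X libraries, against 108, 117 and 97.1 CPM in wild-type libraries. Q150X library 4 was above, and the other 3 Q150X libraries below, all wild-type libraries (-0.10 ± 0.29, adjusted p = 0.910). Flt1 had 71.0, 98.3, 82.2 and 148 CPM in Q150X libraries, against 136, 129 and 153 CPM in wild-type libraries, with overlap through library 4 (-0.48 ± 0.27, adjusted p = 0.444). The median log2 fold change over the 10 genes was -0.14, beside 0.04 over all genes tested, and 0.02 with library size alone. None of the 22 endothelial identity genes passed the test (median -0.17). Their summed level ran over 1237 to 1971 CPM in Q150X and 1713 to 1931 CPM in wild type.

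The NF-kappaB list holds subunits of this factor, inhibitors it induces against itself and other genes of TNF signalling or response. Of its 20 tested members 6 were lower in Q150X and 0 higher, and all 20 log2 fold changes were below 0 (median -1.25; 19 of 20 below 0 with library size alone). Among all genes tested 0.291% were called lower, and 54.2% had a log2 fold change above 0. The 6 are Nfkb2 and Relb, the subunits of the alternative pathway, Bcl3, a nuclear partner of the p50 and p52 subunits, Birc3, a ubiquitin ligase of TNF receptor signalling, Zc3h12a, an RNase that destroys cytokine messages, and Tnfaip2, a TNF-induced gene. Their products act at different points, and Zc3h12a is a brake on inflammation rather than a driver. In bulk tissue, fewer cells of a type and less RNA per cell cannot be told apart.

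Birc3 stood at 16.1, 19.3, 17.9 and 16.5 CPM in Q150X libraries, against 68.9, 22.4 and 101 CPM in wild-type libraries. The Q150X libraries were nearly level, and wild-type library 2 lay just above them (-1.87 ± 0.30, adjusted p = 0.00991). Bcl3 was at 10.4, 23.4, 9.89 and 16.5 CPM in Q150X libraries and at 102, 31.9 and 132 CPM in wild-type libraries. Libraries 1 and 3 of wild type were far above all others (-2.56 ± 0.49, adjusted p = 0.0275). Nfkb2 had 28.6, 34.5, 28.2 and 40.0 CPM in Q150X libraries, against 74.8, 47.4 and 106 CPM in wild-type libraries. It kept the groups apart with a smaller difference (-1.21 ± 0.23, adjusted p = 0.025). Tnfaip2 was at 37.0, 37.8, 38.4 and 46.0 CPM in Q150X libraries, against 180, 57.1 and 313 CPM in wild-type libraries (-2.20 ± 0.42, adjusted p = 0.0262). Zc3h12a (-1.39 ± 0.25) and Relb (-1.59 ± 0.31) followed the same order of libraries, with library 2 the lowest of wild type. Members without a call include the inhibitor Nfkbia, at 37.0, 170, 47.7 and 159 CPM in Q150X libraries against 242, 166 and 260 CPM in wild-type libraries (-1.11 ± 0.43, adjusted p = 0.257). For Nfkbia, Q150X libraries 2 and 4 stood with wild type and libraries 1 and 3 stood lower. The summed level of the list was 782, 1295, 775 and 1239 CPM in Q150X libraries 1 to 4 and 2834, 1289 and 3446 CPM in wild-type libraries 1 to 3. In these sums wild-type library 2 lay at the level of Q150X libraries 2 and 4, and wild-type libraries 1 and 3 stood far higher.

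Of 24 immediate early and AP-1 genes tested, which respond within minutes to growth factors and stress, 4 were lower in Q150X and 0 higher (median -0.53). The shares of all genes tested were 0.291% lower and 0.151% higher. Fosl2, a Fos-family partner in AP-1, had the smallest adjusted p of all genes. It stood at 53.5, 67.4, 45.3 and 58.9 CPM in Q150X libraries, against 184, 130 and 225 CPM in wild-type libraries. All wild-type libraries were well above all Q150X libraries (-1.68 ± 0.22, adjusted p = 0.00411). Maff, a small Maf factor, had 7.48, 13.5, 12.4 and 15.8 CPM in Q150X libraries, against 49.3, 31.1 and 60.4 CPM in wild-type libraries (-1.93 ± 0.29, adjusted p = 0.0081). Myc, a driver of growth and biosynthesis, was at 8.40, 13.7, 8.15 and 15.6 CPM in Q150X libraries and at 57.0, 42.9 and 64.5 CPM in wild-type libraries. Here library 2 of wild type was close to the other 2 (-2.26 ± 0.37, adjusted p = 0.0108). Egr2, a zinc finger factor, was at 3.16, 8.49, 6.89 and 12.3 CPM in Q150X libraries and at 32.0, 22.0 and 35.6 CPM in wild-type libraries (-1.96 ± 0.39, adjusted p = 0.0282). Fos, the founding member, did not pass the test, with 10.7, 26.5, 11.7 and 29.6 CPM in Q150X libraries against 27.0, 28.4 and 27.1 CPM in wild-type libraries (-0.49 ± 0.47).

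The promoters of called genes from the 4 lists with the most calls were searched on both strands for letters bound by the factors these lists are about. The lists are those of NF-kappaB, immediate early genes, cytokines and IL-6 signalling, and the window was the 250 bases before the first listed start in RefSeq (GRCm38.p6, an earlier build than that of the counts). The letters were GGG and TTTCC with 2 free bases between them for NF-kappaB, TGANTCA for AP-1, TGACGTCA for the cyclic AMP response element, and a pair of TTTC with 2 free bases between for the interferon response element. For the serum response element they were CC, ATATTA and GG without a gap, and for STAT factors TTCNNNGAA. In the promoters printed no matches overlap each other. Of 14 such genes 11 have a promoter in the table, and 4 held at least 1 match. They are printed to show where the letters lie, with matches in capitals. Fosl2 (chr5:32136222-32136471, + strand) holds an interferon response match 221 bases before the start, and Nfkb2 (chr19:46304487-46304736, + strand) holds NF-kappaB letters at 11 and STAT letters at 148. Il6 (chr5:30012864-30013113, + strand) holds NF-kappaB letters at 44 and AP-1 letters at 249, and Csf1 (chr3:107760470-107760719, - strand) holds NF-kappaB letters at 154.
Fosl2: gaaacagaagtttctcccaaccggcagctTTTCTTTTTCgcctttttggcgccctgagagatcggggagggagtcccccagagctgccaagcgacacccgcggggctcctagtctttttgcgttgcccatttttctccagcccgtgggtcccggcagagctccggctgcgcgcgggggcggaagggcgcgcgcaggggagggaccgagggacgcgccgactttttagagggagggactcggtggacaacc
Nfkb2: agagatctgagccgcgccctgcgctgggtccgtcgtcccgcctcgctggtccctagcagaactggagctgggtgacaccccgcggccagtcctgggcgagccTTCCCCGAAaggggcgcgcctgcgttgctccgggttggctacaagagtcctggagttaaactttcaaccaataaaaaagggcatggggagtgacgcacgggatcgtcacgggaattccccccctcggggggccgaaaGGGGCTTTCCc
Il6: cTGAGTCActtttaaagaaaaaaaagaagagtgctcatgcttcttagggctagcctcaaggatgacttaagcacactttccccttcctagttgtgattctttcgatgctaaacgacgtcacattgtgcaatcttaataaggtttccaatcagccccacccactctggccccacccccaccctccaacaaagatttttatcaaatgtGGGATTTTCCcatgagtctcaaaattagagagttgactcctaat
Csf1: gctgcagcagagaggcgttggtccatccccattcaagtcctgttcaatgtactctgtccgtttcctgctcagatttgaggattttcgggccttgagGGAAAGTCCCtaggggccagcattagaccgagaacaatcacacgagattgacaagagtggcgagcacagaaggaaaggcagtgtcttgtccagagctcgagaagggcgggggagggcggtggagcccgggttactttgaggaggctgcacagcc
The NF-kappaB letters were in 3 of the 41 lower genes with a promoter (7.32%), 0 of 23 higher genes, 1.42% of the 12006 tested genes with a promoter and 1.4% of all 27025 promoters of this length. The AP-1 letters were in 7.32% of lower genes, 8.7% of higher genes and 4.75% of tested genes, and the STAT letters in 9.76%, 4.35% and 6.1%. These matches describe letters, and no binding was measured.

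Of 26 inflammatory cytokines and chemokines tested, 3 were lower in Q150X and 0 higher, where 0.291% of all genes were lower. The list median was -1.14. Ccl2, the chemokine that draws monocytes, stood at 11.4, 15.2, 9.78 and 11.2 CPM in Q150X libraries, against 120, 25.1 and 167 CPM in wild-type libraries. All Q150X libraries were below wild-type library 2, and libraries 1 and 3 were far higher (-3.13 ± 0.65, adjusted p = 0.0404). Il6, a cytokine that acts through STAT3, was at 0.882, 2.33, 2.57 and 2.50 CPM in Q150X libraries and at 14.4, 10.5 and 31.0 CPM in wild-type libraries. The groups were apart by more than the range within Q150X (-3.17 ± 0.67, adjusted p = 0.0391). Csf1, the growth factor of macrophages, had 45.9, 143, 66.9 and 103 CPM in Q150X libraries, against 467, 84.7 and 492 CPM in wild-type libraries. Its groups overlapped, since wild-type library 2 was below Q150X libraries 2 and 4 (-1.96 ± 0.43, adjusted p = 0.049). Cxcl10, an interferon-induced chemokine, did not pass, with 3.71, 16.6, 8.52 and 9.91 CPM in Q150X libraries against 94.2, 14.5 and 363 CPM in wild-type libraries (-4.02 ± 1.20, adjusted p = 0.145). The other inflammatory list with calls is IL-6 signalling and STAT3 targets, where Pim1, a survival kinase (-1.50 ± 0.25), Il6 and Bcl3 were lower among 20 tested (median -0.49) and 13 had groups apart in this direction, as in 9.32% of all genes tested, where 0.291% were called lower. Socs3, the feedback inhibitor of this pathway, was at 16.2, 65.9, 17.1 and 42.5 CPM in Q150X libraries and at 139, 202 and 146 CPM in wild-type libraries, and missed the threshold (-2.20 ± 0.50, adjusted p = 0.0607).

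The lists of acute-phase and stress proteins and of the hyaluronan matrix include the largest difference among the lower genes. Ptx3, a soluble pattern recognition protein that also crosslinks hyaluronan, was at 2.68, 3.15, 3.38 and 1.51 CPM in Q150X libraries and at 59.6, 10.4 and 200 CPM in wild-type libraries. The wild-type values spread over a wide range, and the lowest was still above every Q150X library (-5.06 ± 0.72, adjusted p = 0.00758). Has1, a hyaluronan synthase, had 1.10, 6.69, 1.66 and 1.44 CPM in Q150X libraries, against 23.2, 30.8 and 31.8 CPM in wild-type libraries. Here all 3 wild-type libraries were high, library 2 included (-3.40 ± 0.66, adjusted p = 0.0282). Mt1, a metal-binding metallothionein, had 106, 118, 72.9 and 120 CPM in Q150X libraries, against 245, 258 and 325 CPM in wild-type libraries, again with library 2 among the high ones (-1.41 ± 0.28, adjusted p = 0.0301). Of 14 hyaluronan genes tested 2 were lower (median -0.11, which turns to 0.07 with library size alone), and of 18 acute-phase genes 2 were lower and 7 were above 0 (median -0.50). Among all genes tested 0.291% were called lower and 54.2% were above 0. The acute-phase sums overlapped, at 1563 to 3559 CPM in Q150X and 1799 to 2690 CPM in wild type. Saa3, an acute-phase apolipoprotein, lay on the other side without a call, at 54.8, 291, 45.6 and 25.6 CPM in Q150X libraries and at 5.30, 17.4 and 18.2 CPM in wild-type libraries (2.93 ± 1.29, adjusted p = 0.316). Has2, another synthase (-2.49 ± 0.56, adjusted p = 0.0523), and Tnfaip6, which links proteins to hyaluronan (-2.11 ± 0.47, adjusted p = 0.0519), lay just outside the threshold.

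The remaining named genes lower in Q150X fall in several roles. Pfkfb3, the enzyme that makes the main activator of glycolysis, stood at 9.46, 29.3, 13.8 and 15.8 CPM in Q150X libraries, against 205, 30.2 and 221 CPM in wild-type libraries. It is the 1 called gene of 28 in the hypoxia and glycolysis list (-3.16 ± 0.54, adjusted p = 0.018), and wild-type library 2 lay next to the highest Q150X library. Rgs16, which ends G protein signals, was at 2.40, 6.16, 2.25 and 3.22 CPM in Q150X libraries and at 27.2, 6.64 and 33.5 CPM in wild-type libraries (-2.68 ± 0.44, adjusted p = 0.0108). Gem, a small GTPase that restrains calcium channels, had 11.9, 11.3, 13 and 14.2 CPM in Q150X libraries, against 54.8, 26.1 and 70.9 CPM in wild-type libraries (-2.01 ± 0.37, adjusted p = 0.0261). Both had library 2 as the lowest of wild type. Slc10a6, a membrane carrier of sulfated steroids, was at 4.78, 12.8, 6.46 and 8.09 CPM in Q150X libraries and at 29.9, 20.2 and 41.3 CPM in wild-type libraries (-1.92 ± 0.35, adjusted p = 0.0206). Noct, a rhythmic phosphatase, had 25.5, 41.9, 21 and 43.5 CPM in Q150X libraries, against 104, 65.2 and 131 CPM in wild-type libraries (-1.60 ± 0.24, adjusted p = 0.00758). Sbno2, a transcriptional regulator in the IL-10 and STAT3 response, had 47.3, 56.0, 34.8 and 41.3 CPM in Q150X libraries, against 114, 77.4 and 172 CPM in wild-type libraries (-1.43 ± 0.21, adjusted p = 0.00758). Both kept all wild-type libraries above all Q150X libraries. Bhlhe40, a repressor in the clock, is the 1 called gene of 17 clock genes (-0.88 ± 0.18, adjusted p = 0.0301), at 38.9 to 65.2 CPM in Q150X and 90.0 to 110 CPM in wild type. Beside the glycolysis and clock counts, 0.443% of all genes tested were called. Ch25h, which makes 25-hydroxycholesterol, was added after its values were seen (-2.86 ± 0.55, adjusted p = 0.0262).

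The genes lower in Q150X that the rule does not name fall between the ends of the range, which runs to -0.52 for Ppp1r2. Among them are 3 parts of the innate sensing pathway, given here after their values were seen: the sensor Nod2 (-2.88 ± 0.58), its kinase Ripk2 (-2.32 ± 0.44) and Irak2, a kinase of Toll-like and IL-1 receptors (-1.29 ± 0.29). Ripk2 was at 7.70, 11, 7.88 and 7.89 CPM in Q150X libraries and at 49.5, 7.12 and 72.6 CPM in wild-type libraries. Wild-type library 2 was below every Q150X library for Ripk2, the other 2 far above. The repressor Bcl6 (-1.07 ± 0.21), the histone demethylase Kdm6b (-1.44 ± 0.30) and the phosphodiesterase Pde4b (-1.21 ± 0.23) were lower with groups apart. So were Gfpt2 and Uap1, enzymes that make amino sugars for hyaluronan and glycoproteins. Gfpt2 had 30.7, 31.3, 30.2 and 27.5 CPM in Q150X libraries, against 80.6, 66.1 and 130 CPM in wild-type libraries (-1.63 ± 0.25, adjusted p = 0.0081). The rest are Litaf, Arid5a, Itpkc, Sema4c, Akap12, Etv3, Icosl, Elmsan1, S1pr3, Sema7a, Ret, Plscr1, Rhbdf2, Slc25a25, Gch1, Ccrl2 and Stx11, with log2 fold changes between -2.17 for Stx11 and -0.82 for Etv3.

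**Figure D2:**
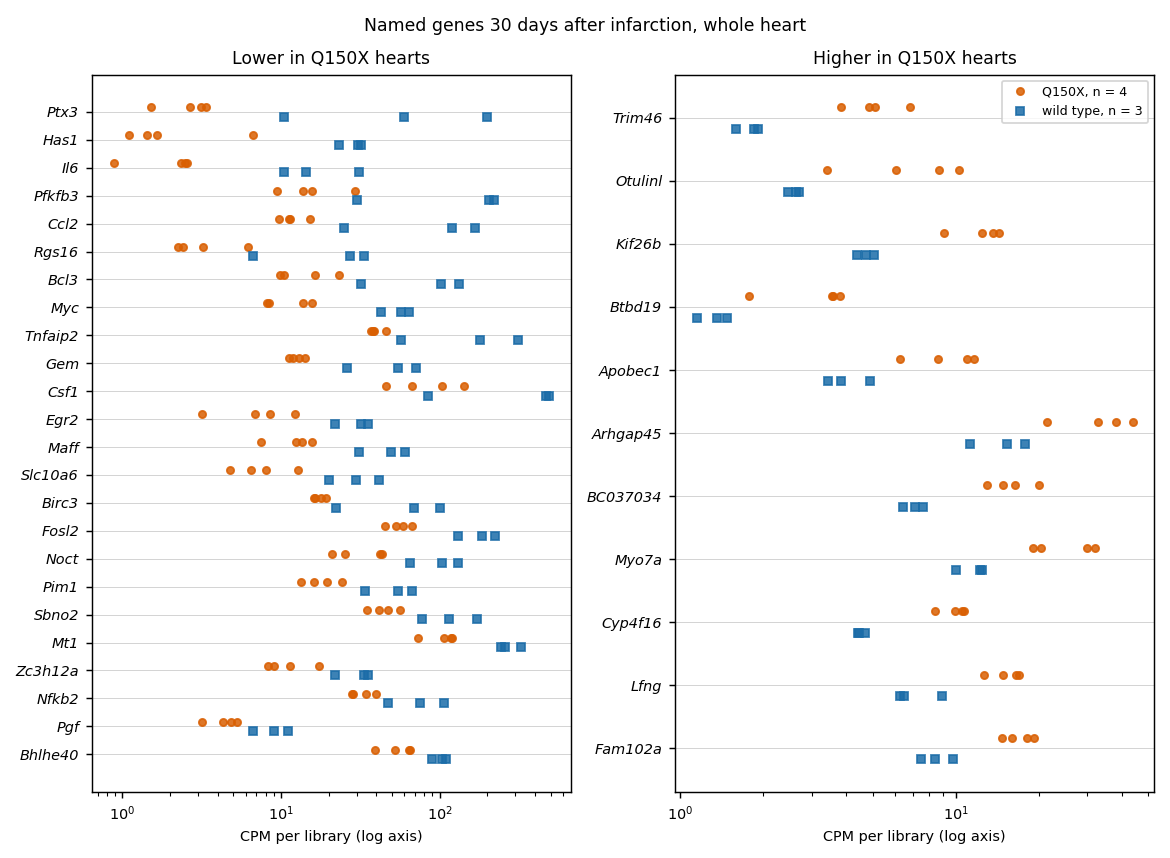
CPM of the named genes with an adjusted p under 0.05 in each day 30 library (horizontal log axis), Q150X as orange circles (n = 4) above wild type as blue squares (n = 3). Lower genes are on the left, higher genes on the right, both ordered by log2 fold change. Csf1 is the 1 gene shown whose groups overlap.

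The genes higher in Q150X hearts that the rule names have several roles. Trim46, a microtubule protein known from axons, was at 5.08, 3.82, 6.84 and 4.84 CPM in Q150X libraries and at 1.60, 1.86 and 1.92 CPM in wild-type libraries (1.52 ± 0.33, adjusted p = 0.0454). Kif26b, a kinesin-like protein, had 13.6, 14.3, 12.4 and 9.09 CPM in Q150X libraries, against 5.07, 4.40 and 4.71 CPM in wild-type libraries (1.39 ± 0.27, adjusted p = 0.0262). In both, the wild-type libraries were close together and all lower. Lfng, a sugar transferase that tunes Notch receptors, had 16.6, 16.9, 14.8 and 12.7 CPM in Q150X libraries, against 6.51, 8.95 and 6.29 CPM in wild-type libraries (1.07 ± 0.22, adjusted p = 0.03). Myo7a, an unconventional myosin, had 32.0, 20.3, 30.0 and 19.0 CPM in Q150X libraries, against 9.98, 12.5 and 12.2 CPM in wild-type libraries (1.13 ± 0.20, adjusted p = 0.0206). Neither Lfng nor Myo7a had overlapping groups. BC037034 had the smallest adjusted p of the higher genes, with 20.1, 14.8, 16.4 and 13 CPM in Q150X libraries against 6.44, 7.14 and 7.63 CPM in wild-type libraries (1.19 ± 0.19, adjusted p = 0.00912).

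Genes known from blood cells are also among the higher ones. Arhgap45, a GTPase-activating protein of blood cells, was at 43.8, 32.9, 38.2 and 21.5 CPM in Q150X libraries and at 11.3, 17.8 and 15.4 CPM in wild-type libraries (1.20 ± 0.24, adjusted p = 0.0301). Apobec1, the RNA-editing cytidine deaminase, had 11.6, 8.63, 11 and 6.28 CPM in Q150X libraries, against 3.43, 3.84 and 4.87 CPM in wild-type libraries (1.21 ± 0.24, adjusted p = 0.0291). Library 4 was the lowest of Q150X in both and still above wild type. The rule also names Otulinl (1.45 ± 0.31), Btbd19 (1.26 ± 0.28), Cyp4f16 (1.13 ± 0.21) and Fam102a (0.99 ± 0.20), all with groups apart. Cd5l and Irf4 lie outside the rule through their low mean and were added after their values were seen. Cd5l, a protein secreted by macrophages, had 30.4, 20.2, 53.3 and 6.38 CPM in Q150X libraries, against 0.585, 2.07 and 2.38 CPM in wild-type libraries (4.03 ± 0.76, adjusted p = 0.0343). Irf4, a factor of plasma cells and other lymphocytes, was at 2.13, 1.73, 2.84 and 2.09 CPM in Q150X libraries and at 0.546, 0.797 and 0.307 CPM in wild-type libraries (1.98 ± 0.43, adjusted p = 0.0467). Of the genes left out for their low mean, Tmem150b, 5730596B20Rik and 1 identifier without a symbol had no count in any wild-type library and at most 1.28 CPM in Q150X libraries, so no fold is given. In all, 26 of the 27 higher genes had every Q150X library above every wild-type library, as in 9.13% of all genes tested, and AI467606 is the exception.

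Before day 30 no gene was called between the genotypes. At day 7 edgeR called 0 of 17845 genes (561 at an unadjusted p under 0.05; 4 by DESeq2, 0 by voom), and at homeostasis it called 0 (504 at an unadjusted p under 0.05; 3 by DESeq2, 0 by voom). The 52 genes lower at day 30 had a median genotype log2 fold change of -0.06 at homeostasis, 0.12 at day 7 and -1.58 at day 30, and 32 and 14 of them were below 0 at homeostasis and day 7. The 27 higher genes had medians of -0.06, 0.16 and 1.45, with 9 and 20 above 0 at homeostasis and day 7. The day 30 medians of both sets are fixed by how the genes were chosen.

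In the course, most of the 52 genes were called upward in wild-type hearts between day 7 and day 30 and few were called in Q150X hearts. In Q150X hearts 8 rose, 5 fell and 39 had no call, where 14.9% and 16.5% of all genes rose and fell. In wild-type hearts 49 of the 52 rose, 0 fell and 3 had no call, where 13.9% and 16.1% of all genes rose and fell. These courses share their day 30 libraries with the genotype comparison that picked the genes, so they are given side by side and support nothing further. The median log2 fold change of day 30 over day 7 was 0.11 in Q150X and 1.68 in wild type. From homeostasis to day 7, which shares no library with day 30, 15 rose and 4 fell in Q150X (13.8% and 12.3% of all genes), and 11 rose and 7 fell in wild type (7.65% and 6.07%). With a block for the replicate number, 1782 genes in place of 1083 fell in wild type from homeostasis to day 7.

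Several patterns of this course can be named by their genes. The commonest, with 38 of the 52 genes, is a rise in wild type and no call in Q150X. At homeostasis Ptx3 averaged 0.718 ± 0.28 CPM in Q150X hearts and 0.764 ± 0.637 CPM in wild-type hearts, then 5.26 ± 2.83 and 4.48 ± 1.25 at day 7 (SD). From day 7 to day 30 its log2 change was -0.97 ± 0.63 in Q150X (adjusted p = 0.251) and 4.33 ± 0.70 in wild type (adjusted p = 0.000362). Ccl2 averaged at day 7 4.50 ± 4.91 CPM in Q150X hearts and 3.41 ± 2.00 CPM in wild-type hearts (SD), and its later changes were 1.40 ± 0.61 in Q150X (adjusted p = 0.0867) and 4.93 ± 0.70 in wild type. Myc had risen by day 7 in both genotypes, to 15.7 ± 3.60 CPM in Q150X and 14.7 ± 3.04 CPM in wild type (SD), against 3.09 and 3.19 CPM at homeostasis, and rose again in wild type (1.89 ± 0.37). In a further 8 genes both genotypes rose, among them Bcl3, Egr2, Gem and Csf1. Egr2 rose by 1.73 ± 0.37 in Q150X and by 4.13 ± 0.42 in wild type.

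Fosl2, Maff and Slc10a6 form another pattern, with a fall in Q150X and a rise in wild type. In uninjured hearts Fosl2 already stood apart without a call (-0.73 ± 0.24). It was at 33.9 to 52.5 CPM in Q150X and 59.7 to 83.0 CPM in wild type. Fosl2 averaged 88.7 ± 21.3 CPM in Q150X and 76.5 ± 15.8 CPM in wild type at day 7 (SD), and then fell by 0.66 ± 0.20 in Q150X (adjusted p = 0.0196) while it rose by 1.23 ± 0.22 in wild type (adjusted p = 0.000536). Pgf and Mt1 form the last, with a fall in Q150X and no call in wild type. Mt1 had risen in both genotypes by day 7, to 283 ± 56.2 CPM in Q150X and 229 ± 36.9 CPM in wild type (SD). It then fell by 1.44 ± 0.27 in Q150X (adjusted p = 0.000709), with 0.27 ± 0.28 in wild type (adjusted p = 0.486). Pgf stood at 8.92 ± 1.08 CPM in Q150X hearts and 9.96 ± 0.455 CPM in wild-type hearts at day 7 (SD), both risen from homeostasis, and then fell by 1.02 ± 0.21 in Q150X (adjusted p = 0.0014), with -0.16 ± 0.22 in wild type (adjusted p = 0.619). Ppp1r2 had no call in either genotype.

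**Figure D3:**
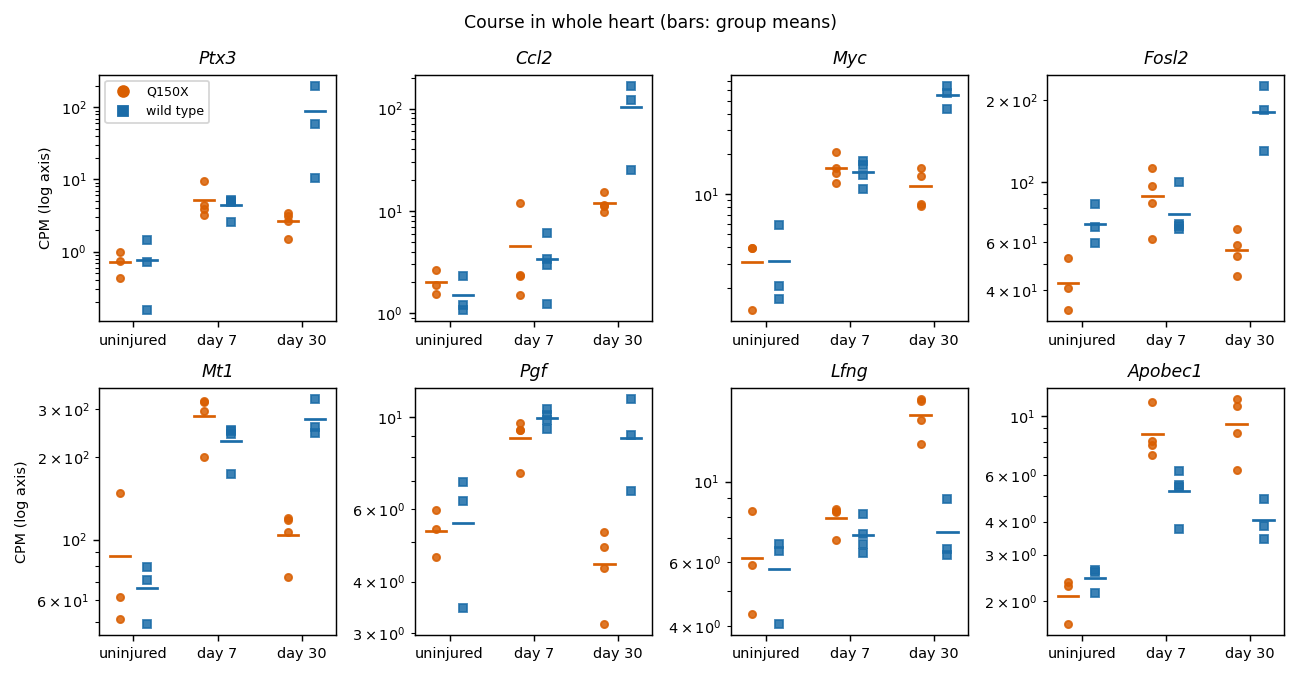
CPM of 8 genes (vertical log axes) in every whole-heart library, uninjured, at day 7 and at day 30 after MI, with Q150X as orange circles to the left of wild type as blue squares and bars at group means. Ptx3, Ccl2, Myc and Fosl2 separate at day 30, while Pgf and Mt1 at day 30 are lower in Q150X than at day 7. Fosl2 is also apart in uninjured hearts, without a call, and overlaps at day 7. Lfng is higher in Q150X at day 30, and Apobec1 is shown as a higher gene with no call from day 7 to day 30.

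The 27 higher genes had 2 main courses from day 7 to day 30. In Q150X hearts 11 rose and 2 fell, where 14.9% and 16.5% of all genes did, and in wild-type hearts 1 rose and 13 fell, where 13.9% and 16.1% did. These courses also share the day 30 libraries that picked the genes. In 9 genes Q150X rose and wild type had no call, among them Kif26b, Trim46, Lfng, Myo7a, Fam102a, Il16 and Irf4. Kif26b rose by 1.30 ± 0.24 in Q150X (adjusted p = 0.000598), with -0.22 ± 0.26 in wild type (adjusted p = 0.54). Lfng rose by 0.94 ± 0.19 in Q150X (adjusted p = 0.00147), with 0.03 ± 0.21 in wild type (adjusted p = 0.924). In 10 genes wild type fell and Q150X had no call, among them BC037034, Cyp4f16, Btbd19, Fbxo5 and Pnpla6. Of the rest, Apobec1, Arhgap45, Otulinl and AI467606 had no call in either genotype, Adprm and 1 unnamed identifier fell in both, Gpc2 fell in wild type and rose in Q150X, and Cd5l rose in both. From homeostasis to day 7, 11 of the 27 rose and 1 fell in Q150X (13.8% and 12.3% of all genes), and 4 rose and 0 fell in wild type (7.65% and 6.07%). Apobec1 was one that rose in both, to 8.57 ± 1.87 CPM in Q150X and 5.21 ± 1.03 CPM in wild type at day 7 (SD), against 2.09 and 2.44 CPM at homeostasis. Its groups were already apart at day 7, at 7.15 to 11.3 and 3.75 to 6.18 CPM, without a call (0.72 ± 0.22).

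Whether the genotype difference itself differed between times was tested by interaction terms. Against day 7, edgeR called 0 genes (979 at an unadjusted p under 0.05; 50 by DESeq2, 48 by voom), and 53 were called without wild-type day 30 library 2. The smallest adjusted p, 0.0586, belonged to Fosl2 (-1.89 ± 0.30) and Sbno2 (-1.78 ± 0.29). Ptx3 (-5.30 ± 0.93), Noct (-1.70) and Maff (-2.12) came next in this direction, and in the other Kif26b (1.52), Fam102a (1.25), Myo7a (1.08), Zfp53 (1.45) and Arhgap28 (1.72). Against homeostasis 0 genes were called (1724 at an unadjusted p under 0.05, smallest adjusted p = 0.253; 54 by DESeq2, 1 by voom, 1 with the replicate block), and 30 without wild-type day 30 library 2. The smallest p there belonged to Sbno2 (-1.55), Rgs16 (-3.05), Birc3 (-1.99), Bhlhe40 (-1.23) and Lrrc8b (-1.21) downward and, among those upward, to BC037034 (1.40), Fgd3 (2.13), Skap2 (1.10) and Stx2 (0.85) upward. In the fit reported, no gene was thus shown to differ between genotypes more at day 30 than earlier.

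Other lists held no called gene and are given by their counts and medians, beside 0.04 for all genes tested and 54.2% of genes above 0. All 14 lymphocyte genes tested were above 0 (median 1.64), and 7 had every Q150X library above every wild-type library, as in 9.13% of all genes tested, with a summed level of 17.9 to 25.5 CPM in Q150X and 5.11 to 8.89 CPM in wild type. Of 23 monocyte and macrophage genes 21 were above 0 (median 0.86), with sums of 975 to 2559 CPM in Q150X and 895 to 1370 CPM in wild type that overlap through Q150X library 4. The part of leukocyte numbers in the inflammatory genes that were lower in Q150X was not tested. Neutrophil markers were low in both, at 19.5 to 64.2 CPM in Q150X and 31.4 to 78.5 CPM in wild type (11 tested, median -0.55). Of 34 fibroblast and matrix genes 31 were above 0 (median 0.65, 10 with groups apart beside the same 9.13%), and the sums were 9394 to 11858 CPM in Q150X and 3915 to 8199 CPM in wild type without overlap. DNA replication and mitosis genes were above 0 in 24 of 25 (median 0.63).

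Genes of heart muscle metabolism pointed the other way without a call. All 32 nuclear genes of oxidative phosphorylation were below 0 (median -0.26, 15 with groups apart, as in 9.32% of all genes tested in this direction; 24 below 0 and a median of -0.09 with library size alone). Their sums were 17388 to 19828 CPM in Q150X and 21911 to 27095 CPM in wild type. Fatty acid oxidation had 22 of 25 below 0 (median -0.40, 14 with groups apart beside the same 9.32%), with sums of 10519 to 13151 CPM in Q150X and 14578 to 18498 CPM in wild type. Calcium handling and ion channel genes had 18 of 19 below 0 (median -0.37), with sums of 7412 to 11695 CPM in Q150X and 12830 to 15766 CPM in wild type. Cardiomyocyte structure genes had 18 of 20 below 0 (median -0.22). With library size alone their median moved to -0.07, and 6 were above 0. Muscle genes and scar genes thus stood on opposite sides with TMM factors, and how much scar and muscle each piece of tissue held was not tested. Interferon-gamma targets had 17 of 18 below 0 at day 30 (median -0.71), beside a median of 1.65 at day 7. Their sums at day 7 ran over 207 to 2449 CPM in Q150X and 205 to 253 CPM in wild type. At day 30 they were 562, 823, 689 and 467 CPM in Q150X libraries and 1460, 588 and 1796 CPM in wild-type libraries, with wild-type library 2 inside the Q150X range. Skeletal muscle genes had 8 of 9 tested below 0 (median -1.64), with overlapping sums of 1054 to 1391 CPM in Q150X and 947 to 1324 CPM in wild type. The sums include Ckm, which is also in the cardiomyocyte list, and Acta1. Acta1 was at 394 to 726 CPM in Q150X and 287 to 390 CPM in wild type. The overlap of the sums is thus no check for skeletal muscle tissue. Placental genes summed to at most 0.0608 CPM in Q150X and 0.0383 CPM in wild type. Type I interferon genes had a median of -0.12, which turns to 0.06 with library size alone.

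**Figure D4:**
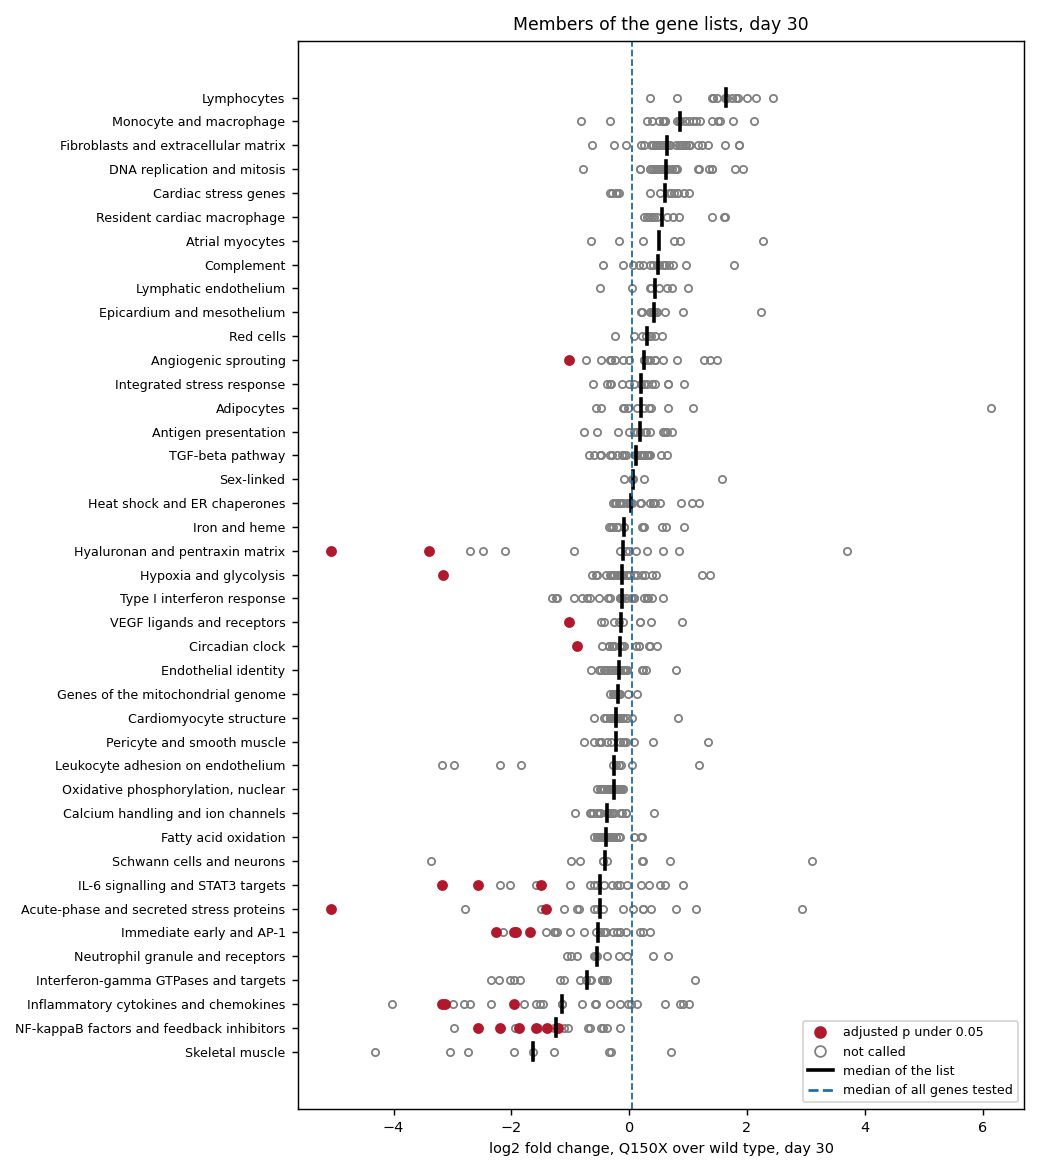
Log2 fold change of Q150X over wild type at day 30 (horizontal axis) for the tested members of each list with at least 5 of them (rows, ordered by median). Red points passed an adjusted p of 0.05, open points did not, black bars are list medians and the dashed line is the median of all genes tested. Red points are found in the inflammatory, immediate early, hyaluronan, VEGF, sprouting, glycolysis and clock lists, all below 0.

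**Figure D5:**
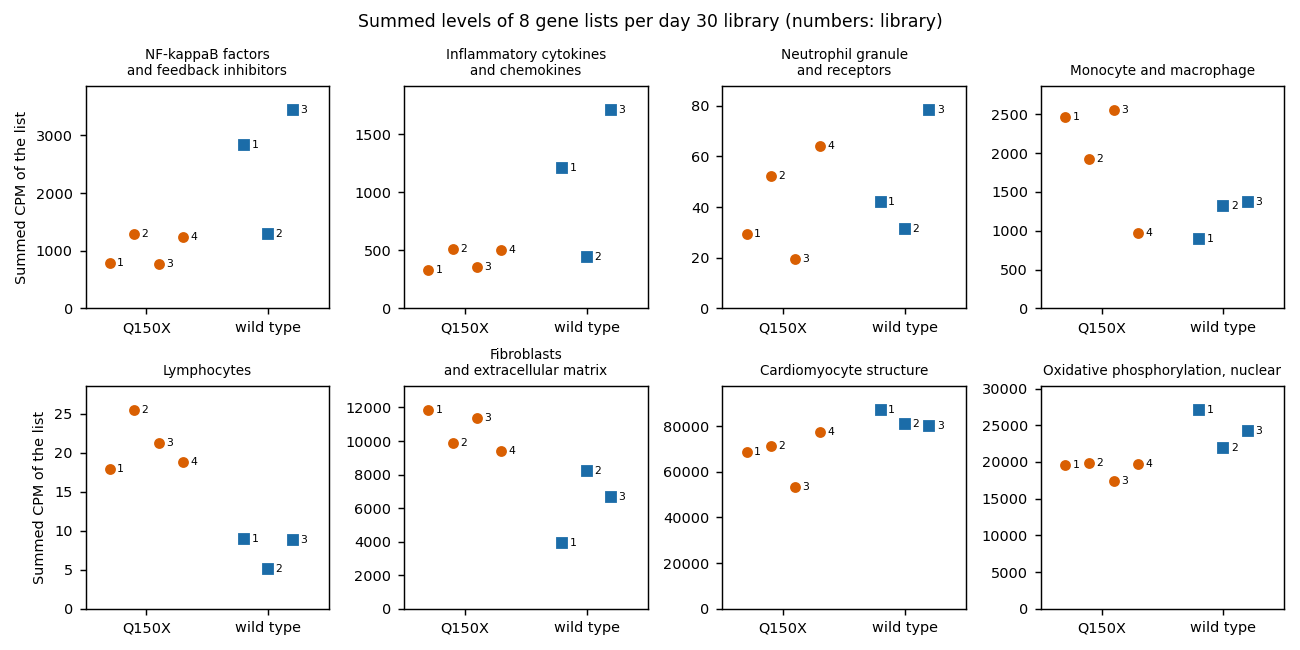
Summed CPM of 8 gene lists (vertical axes, each starting at 0) in each day 30 library, numbered, with Q150X to the left of wild type. In the NF-kappaB and cytokine lists wild-type libraries 1 and 3 stand high and library 2 lies at the level of Q150X. The lymphocyte, fibroblast, cardiomyocyte and oxidative phosphorylation lists separate all libraries by genotype on the TMM-scaled library sizes shown. The cardiomyocyte gap is small, at most 77358 CPM in Q150X and at least 79933 CPM in wild type. Sums on library size alone are not given.

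Around the threshold, Csf1 (adjusted p = 0.0490), Stx11 (0.0492) and Irak2 (0.0496) were the last genes called. Tnfaip6 (0.0519), Ankrd33b (-1.13, 0.0523) and Lyl1 (1.66, 0.0523) lay just outside.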

How the data were processed

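Bulk RNA was sequenced from whole mouse hearts. The authors deposited raw counts per gene for 57010 Ensembl genes in 43 libraries, 21 of them whole hearts. Per the submitters' processing notes HISAT2 and kallisto were used with build GRCm39. Which of them made the counts, with what versions, annotation and strand setting is not given in the sources used here, so reads of overlapping and antisense genes may be shared. RNA was extracted with Trizol, per the labels. Single-nucleus data were not analysed here.

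Symbols came from GENCODE vM21 by gene identifier (52029 matched). All 21 heart libraries were fitted together with edgeR 4.0.16 in R 4.3.3 with 1 mean per group: TMM factors, filterByExpr by group (count minimum 10, total minimum 15; 17845 genes kept) and the robust quasi-likelihood F-test. Standard errors were derived from each F statistic and its fold change. Python 3.11.15 with pandas 2.3.3 made the tables and matplotlib 3.10.9 the figures. Total counts per heart library were 25948706 to 37356177. Replicates differed by 7.95 to 192 times the squared counting noise, and no pair was identical. The script was tested on simulated data. Alternatives were DESeq2 1.42.0, voom in limma 3.58.1, 2 other scalings, no filter, the compared groups alone, a replicate block and leaving out libraries.

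The replicate block pairs same-numbered libraries of the genotypes within a time. Deviations from the group means correlated at 0.591, 0.31 and 0.333 for same-numbered homeostasis libraries 1 to 3. Libraries 2 and 3 correlated about as well across numbers, at 0.317 and 0.299. Both number 1 libraries hold atrial genes, and deviations from a mean of 3 libraries depend on each other. These correlations at homeostasis therefore cannot show a pairing, and the labels give none. At day 7 and day 30 same-numbered libraries did not pair.

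Members, gene lists, tests and the rule for named genes were chosen with earlier results of these data known. The rule names 3 VEGF genes (Vegfa, its receptors Kdr and Flt1), in each direction the 12 called genes with the largest change (mean of at least 1 log2 CPM, groups apart, no numbered or unnamed transcripts), up to 4 called genes per list by p, and the 5 smallest p per direction in each interaction. A gene that the rule names is not reported here.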

Additional observations from a re-analysis of the deposited data

Results flagged for a closer look

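In 5 of the 37 groups of 4 day 30 Q150X libraries that were examined, 1 per gene, the highest or lowest library lay far from the other 3 relative to the range. Chance flags about 1 in 20 groups, and the genes share their libraries.

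Kdr was at 152 CPM in Q150X library 4, above 78.5 to 88.4 CPM in the other 3. Has1 was at 6.69 CPM in Q150X library 2, above 1.10 to 1.66 CPM in the others and below every wild-type library. Tnfaip2 was at 46.0 CPM in Q150X library 4, and Il6 at 0.882 CPM in Q150X library 1, the lowest. Btbd19 was at 1.78 CPM in Q150X library 4, the lowest of its group and still above the wild-type libraries.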

How the results depend on the processing

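Counts are given as higher and lower in Q150X, or in the later time. At day 30 (27 and 52) they were 230 and 224 with DESeq2, 827 and 924 with voom, 237 and 239 with the replicate block (59 of the 79 genes among them), 294 and 420 without the 3 libraries that stand apart, 0 and 0 with the compared groups alone, 22 lower with library size alone and 14 higher without a filter. Leaving out 1 library gave 0 to 104 higher and 0 to 119 lower. At day 30 same-numbered libraries correlated at -0.051 to 0.076, so the block there rests on numbers alone, and not every library correlated best with its own number. With DESeq2, day 7 had 3 and 1 calls and homeostasis 3 higher.

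For the interaction with day 7 (0 and 0) DESeq2 gave 10 and 40, voom 7 and 41, the compared groups alone 2 and 5, no filter 2 lower, and the hearts without the libraries that stand apart 1 and 7. Leaving out 1 library gave 0 to 3 higher and 0 to 50 lower. With homeostasis DESeq2 gave 33 and 21, voom 1 lower and the replicate block 1 higher, and leaving out 1 library gave 0 to 7 higher and 0 to 23 lower.

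In the course from homeostasis to day 7, Q150X (2454 and 2187) had 1045 and 1202 with the compared groups alone, 3979 and 1165 with library size alone, and 1634 higher without a filter. Wild type (1365 and 1083) had 740 higher without a filter, 3331 and 2565 with voom and 1782 lower with the block, and 733 to 1331 higher and 677 to 991 lower without 1 library. From day 7 to day 30, Q150X (2650 and 2953) had 933 and 1224 with the block and 4098 higher with voom. Wild type (2480 and 2874) had 1091 and 1227 with the block and 4236 and 4389 with voom, and 1529 to 2086 higher and 1786 to 2558 lower without 1 library. The cause of these shifts was not tested. The use of hearts without the libraries that stand apart was planned for day 30 and added after seeing the data elsewhere. No named gene reversed its direction with a call under any of these settings. With 4 and 3 libraries, small differences were not detectable, and the labels give no extraction or sequencing batch.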

Other observations

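Immunoglobulin genes were gathered as a list after their values were seen, so they carry no test as a group. Of 200 with a count 45 were tested, and 42 had a log2 fold change above 0 at day 30 (median 2.14). Their summed level was 197, 302, 777 and 150 CPM in Q150X libraries 1 to 4, against 63.3, 105 and 72.4 CPM in wild-type libraries 1 to 3, so every Q150X library was above every wild-type library. Of single genes 1 was called, the variable segment Igkv10-96. Ighm, the constant region of IgM, was at 41.6, 91.4, 236 and 42.4 CPM in Q150X libraries and at 20.9, 43.8 and 20.0 CPM in wild-type libraries, with overlap (1.87 ± 0.70, adjusted p = 0.246). Jchain, which joins IgM and IgA units, was at 12.4, 18.9, 59.2 and 8.78 CPM in Q150X libraries and at 3.82, 6.11 and 4.41 CPM in wild-type libraries (2.37 ± 0.65, adjusted p = 0.119). Segments of this family share sequence, and the counting may split their reads.

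Endothelial adhesion genes were split by library rather than by genotype alone. Icam1 was at 17.7, 177, 33.0 and 115 CPM in Q150X libraries and at 861, 86.6 and 1060 CPM in wild-type libraries, with overlap (-2.97 ± 0.70, adjusted p = 0.0742). Sele had 3.99, 45.9, 0.992 and 40.1 CPM in Q150X libraries, against 131, 19.5 and 161 CPM in wild-type libraries (-2.19 ± 0.90, adjusted p = 0.288). Q150X libraries 2 and 4 were above libraries 1 and 3 in both genes, and wild-type library 2 was below the other 2. Junb was at 42.2, 239, 60.4 and 252 CPM in Q150X libraries, against 372, 332 and 366 CPM in wild-type libraries, where library 2 was as high as the others (-1.26 ± 0.63, adjusted p = 0.384).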
